A study of Homo sapiens with 4 samples.

Results

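The genes described here belong to the epidermal differentiation complex and the cornified envelope. They were chosen by name from the deposited table of raw counts: every symbol beginning with SPRR, LCE or S100A and a digit, together with IVL, LOR, FLG, FLG2, HRNR, RPTN, CNFN, CRCT1, SBSN, CALML5, CASP14, KPRP, LYPD3 and CDSN. The table held 65 such genes among 60617. PolyA RNA was sequenced from SCC13 cells, a human line grown from a skin squamous cell carcinoma, in 2 groups of 2 libraries. Cells of both groups had been infected with a lentivirus and were labelled as genotype WT and grown in CnT-07 medium with penicillin and streptomycin; the controls expressed a scrambled shRNA and the knockdown cells an shRNA against CELF2, an RNA-binding protein. Whether both knockdown libraries carried the same shRNA was not given in the sources used here, and the labels do not state separate cultures, so a p-value covers only how much these libraries vary, which may be technical.

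The epidermal differentiation complex is a cluster of genes on chromosome 1 that keratinocytes switch on as they leave the basal layer and cornify. Its middle holds structural genes, whose products (involucrin, loricrin, the small proline-rich proteins and the late cornified envelope proteins) are crosslinked by transglutaminases into the protein shell of the dead cell, and the fused S100-type genes such as filaggrin, whose products bundle keratins or join that shell. The S100A genes at its edges encode small calcium-binding proteins of which several are made in basal cells, tumors and inflamed skin. The genes outside chromosome 1 encode late proteins of the same cells, such as the protease caspase-14 and corneodesmosin, which holds cornified cells together.

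The libraries held between 17649090 and 27898889 counts. CELF2 had 1 count in control replicate 1 and 0 in each of the other 3 libraries. The targeted gene was at the floor in the controls too, so it offers no check of the labels or of the knockdown. The group name knockdown follows the labels only. Keratinocyte markers were high in every library: the summed level of 10 of them, among them KRT5, KRT14 and TP63, ran from 13144 to 27881 CPM (the count relative to the TMM-scaled library total). Of 6 fibroblast markers 4 had 0 counts in all libraries (COL1A2, COL3A1, DCN and LUM), as did 3 of 10 immune and myeloid markers (PTPRC, CD3E and CSF3R). The summed level of 4 proliferation genes (MKI67, TOP2A, CDC20 and CCNB1) was 2420.1 and 1251 CPM in the controls and 455 and 676 CPM in the knockdown, and MKI67 and CDC20 passed the test as lower; their part in the results below was not tested.

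The promoters are shown first, because several of the motifs searched were found at different shares in the genes with a level and those without one. RefSeq (GRCh38.p14) held 55 of the 65 genes, and 5 are printed as the 250 bases upstream of the start, from 5′ to 3′ on the gene's strand: S100A6 with the highest level, S100A4 with the difference that passed the test, S100A9 of inflamed epidermis, and IVL and SPRR1B of the envelope itself. Capitals mark matches on either strand to 3 motifs, the AP-1 site TGANTCA, the TATA box TATAAA and the Sp1 and KLF box GGGCGG.
S100A6, chr1:153535992-153536241, minus strand: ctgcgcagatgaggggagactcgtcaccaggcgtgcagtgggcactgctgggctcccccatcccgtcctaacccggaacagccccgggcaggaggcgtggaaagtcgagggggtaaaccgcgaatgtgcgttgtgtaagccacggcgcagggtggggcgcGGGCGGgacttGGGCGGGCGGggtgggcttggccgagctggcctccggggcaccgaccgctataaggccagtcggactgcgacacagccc
S100A4, chr1:153545807-153546056, minus strand: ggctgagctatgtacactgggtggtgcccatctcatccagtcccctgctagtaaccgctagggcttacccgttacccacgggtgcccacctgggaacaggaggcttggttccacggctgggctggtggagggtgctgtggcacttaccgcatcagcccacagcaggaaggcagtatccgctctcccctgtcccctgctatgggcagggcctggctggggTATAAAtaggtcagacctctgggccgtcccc
S100A9, chr1:153357604-153357853, plus strand: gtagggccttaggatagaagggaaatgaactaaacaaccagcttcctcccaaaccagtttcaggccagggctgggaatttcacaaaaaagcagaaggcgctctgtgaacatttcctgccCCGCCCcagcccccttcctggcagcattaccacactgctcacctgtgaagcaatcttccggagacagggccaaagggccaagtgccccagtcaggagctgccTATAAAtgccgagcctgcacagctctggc
IVL, chr1:152908296-152908545, plus strand: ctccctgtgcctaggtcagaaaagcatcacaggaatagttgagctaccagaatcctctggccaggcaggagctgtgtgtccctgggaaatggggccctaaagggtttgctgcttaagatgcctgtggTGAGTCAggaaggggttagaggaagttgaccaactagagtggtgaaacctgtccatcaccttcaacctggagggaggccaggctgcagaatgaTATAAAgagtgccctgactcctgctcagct
SPRR1B, chr1:153030953-153031202, plus strand: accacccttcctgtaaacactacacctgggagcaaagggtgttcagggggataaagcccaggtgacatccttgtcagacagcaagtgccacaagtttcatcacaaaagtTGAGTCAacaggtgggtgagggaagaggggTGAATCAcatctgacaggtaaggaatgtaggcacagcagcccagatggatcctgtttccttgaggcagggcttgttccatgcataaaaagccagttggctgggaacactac
A match is a description of letters and not a bound site. For each gene of the family only the first promoter listed was searched. The share over all promoters counts every listed promoter, also where a gene has several, so it is not a share of genes. GGGCGG was found in 8 of the 18 genes with enough counts to be tested, in 0 of the 37 others, and in 42.6% of all 35116 promoters of this length. TATAAA showed the opposite split, with 3 of the 18 (S100A4, S100A9 and IVL, printed above) and 23 of the 37 against 10.7% of all promoters. In 22 of those 26 genes it began 25 to 35 bases before the start. TGANTCA was found in 6 of the 18 and 10 of the 37, against 6.57% of all promoters, and the C/EBP box TTNNGNAA in 5 and 23, against 33.2%. The GRHL box AACCNGTT was found in 1 and 2 genes, against 1.49% of all promoters. Members of a family have similar promoters, so these genes are not independent of each other.

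Most of the structural genes had no counts at all. Of the 65 genes 30 had 0 counts in all 4 libraries, 12 had 1 to 9 counts in all, and 16 had a mean of at least 1 CPM. The limit that a count of 0 allows, 3 counts, was 0.107 and 0.178 CPM with scrambled shRNA and 0.148 and 0.126 CPM with CELF2 shRNA. The filter on low counts kept 18 genes: 11 S100A genes, SPRR1B, CNFN, SBSN, IVL, CASP14, LYPD3 and CDSN. A gene that passed the filter through the group where it is higher had to differ, so counts over these 18 describe tested genes and not the whole family.

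**Figure D1:**
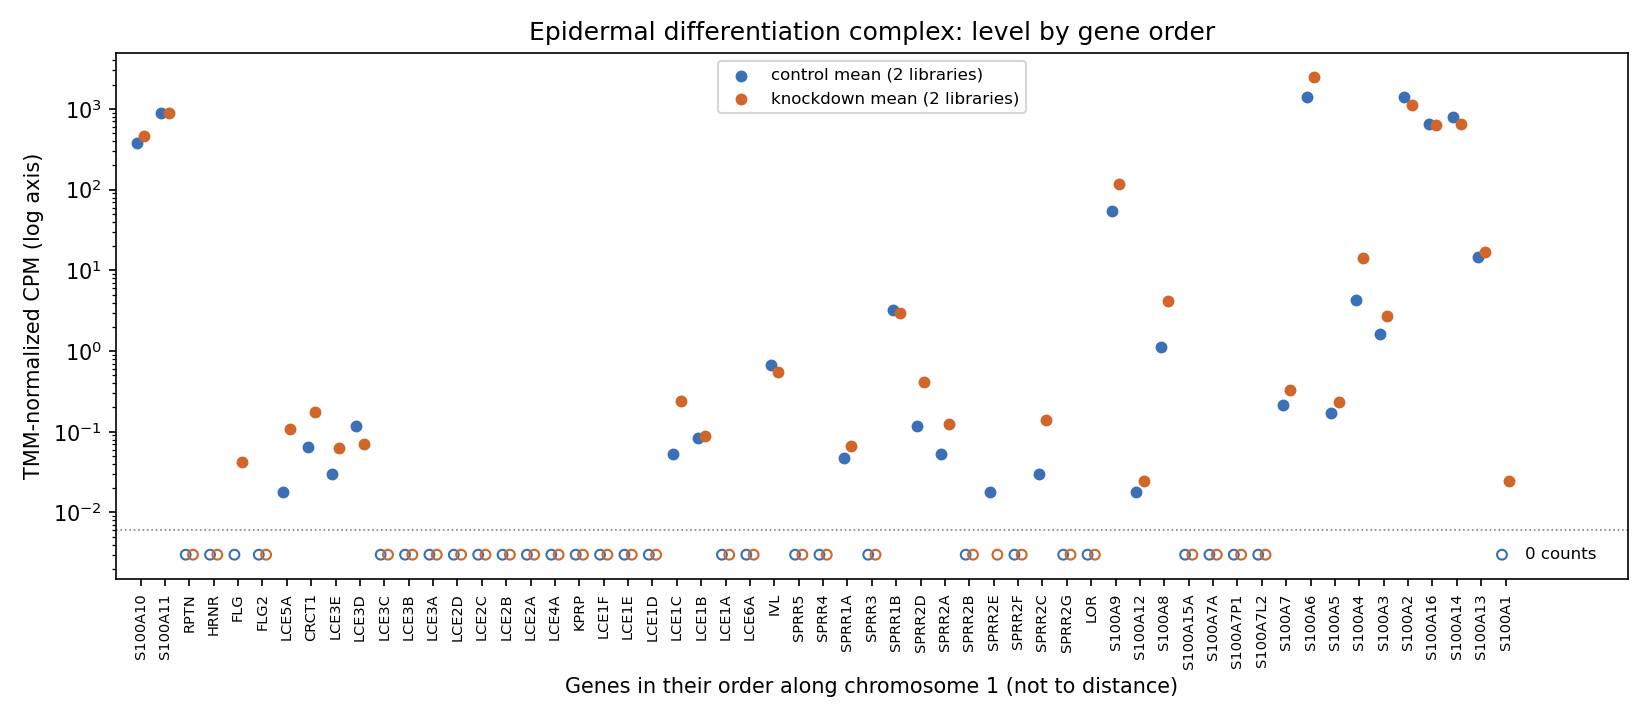
Mean level (TMM-normalized CPM, log axis) of the 57 genes on chromosome 1 in their order along the chromosome, with controls in blue and knockdown in orange; open symbols mark 0 counts in both libraries of a group. The 38 genes from RPTN to LOR lie at or near 0 with SPRR1B as their highest, between the S100A genes at either edge.

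Along chromosome 1 (GRCh38) the level changed abruptly with gene order, as the plot by gene order shows. S100A10 and S100A11, the first 2 genes, had 1140 and 1390 CPM together in the controls and 1288 and 1432 CPM in the knockdown. The next 38 genes, from RPTN to LOR (152153595 to 153262122), gave 448 counts in all 4 libraries together, 24 of them had 0 counts throughout, and their summed level was 5.97 and 3.09 CPM in the controls and 3.75 and 6.44 CPM in the knockdown. This stretch did not separate the groups. From S100A9 to S100A1 (153357854 to 153632039) 17 genes gave 412494 counts, with 4000.3 and 4675 CPM in the controls and 5376 and 4758 CPM in the knockdown. This stretch was not uniform: 4 of its genes had 0 counts throughout, 9 were tested, and the means over all libraries ran from 0 to 1951 CPM.

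S100A genes carried nearly all of the reads of the family. The 21 genes of that name took 0.515% and 0.579% of all counts with scrambled shRNA against 0.678% and 0.634% with CELF2 shRNA. With scrambled shRNA, S100A6 alone made up 1176 and 1630.2 CPM of their summed 5140 and 6066 CPM. With CELF2 shRNA it made up 2637 and 2359.6 CPM of 6664 and 6191 CPM. The higher share therefore does not show a rise across the family. Of the 11 tested S100A genes, 6 were separated upward (both knockdown libraries above both controls), 2 downward and 3 overlapped. The shares among all tested genes were 27.1% upward and 27.8% downward. Per length (RPKM, the CPM per kilobase of GENCODE v29 exon), S100A6 and S100A11 were the highest in the controls, at 1212 and 1679 and at 1186 and 1433 RPKM, and these ranges overlap. S100A2 followed at 881 and 910.0 RPKM, S100A14 at 595 and 663 and S100A16 at 355 and 411, each below the one before in both control libraries. In the knockdown S100A6 stood apart from S100A11, at 2716 and 2430.1 against 1259.7 and 1397 RPKM. Below S100A9 the next gene was LYPD3, at 18.2 and 17.3 RPKM in the controls, and no structural gene of chromosome 1 had a control mean above that of SPRR1B, 5.19 RPKM.

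**Figure D2:**
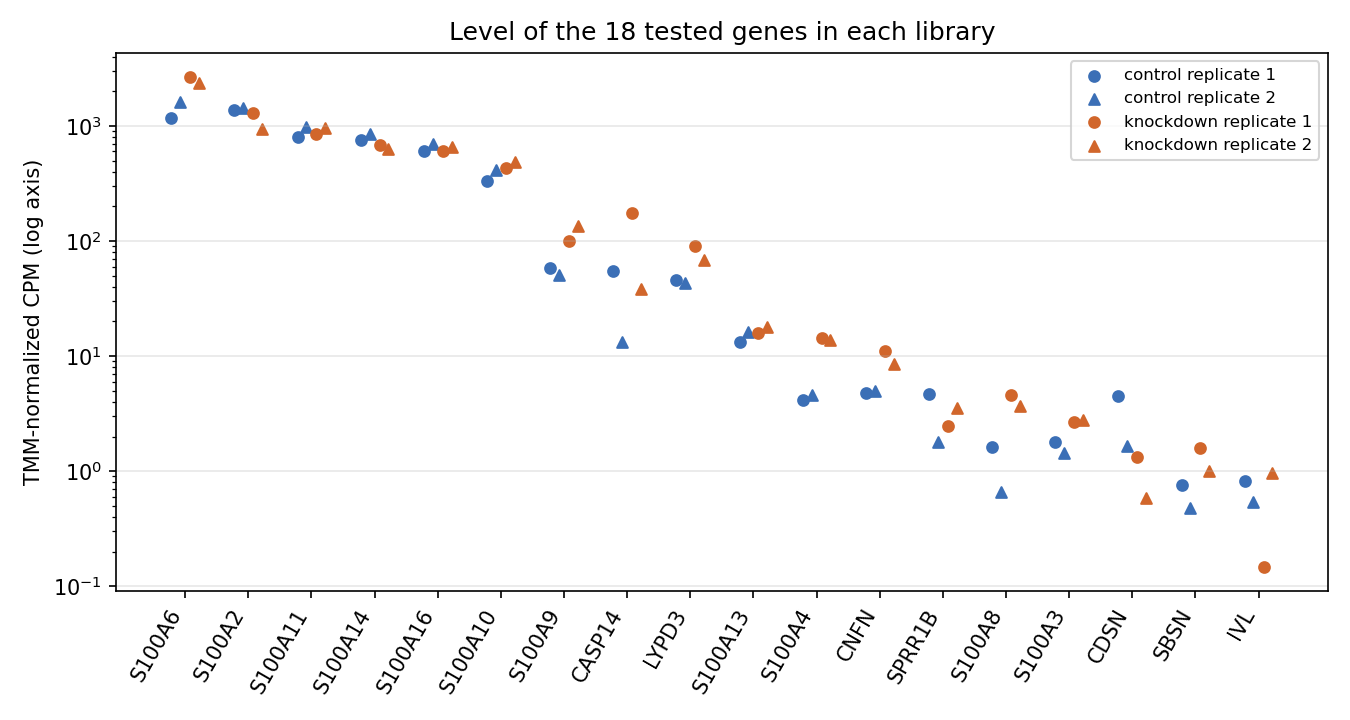
Level of the 18 tested genes in each of the 4 libraries (TMM-normalized CPM, log axis), with controls in blue, knockdown in orange, circles for replicate 1 and triangles for replicate 2. S100A4 lies near 4 CPM in both controls and near 14 CPM in both knockdown libraries, while CASP14 is higher in replicate 1 than in replicate 2 of either group.

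The comparison asks which of these genes differ between CELF2 knockdown and control cells. One of the 18 tested genes, S100A4, rose at an adjusted p below 0.05 and 0 fell (edgeR quasi-likelihood test, Benjamini-Hochberg adjustment over 15170 genes). Over all tested genes 0.606% passed as higher and 0.27% as lower, 0.877% in all. Of all genes 92 passed as higher and 41 as lower, a split that was 762 and 592 with DESeq2 and 192 and 358 with a correction for GC content. At an unadjusted p below 0.05 there were 7 of the 18, against 22.1% of all tested genes. Both knockdown libraries lay above both controls in 9 of the 18, against 27.1% of all tested genes, and below them in 3, against 27.8%. The median log2 fold change (knockdown over control) was 0.52 over the 18 genes and -0.0036 over all tested genes. Over the members it was 0.29 with the correction for GC content and 0.78 at a minimum count of 50, which left 15 of them. DESeq2 called 6 of the 18 (S100A4, S100A6, S100A8, S100A9, CNFN and LYPD3, all higher) and 5.22% of all genes with counts. That share is over 25916 genes without the filter on low counts, which the 18 had passed, so the bases are unlike. With 2 libraries against 2, a permutation test of a single gene cannot go below p = 0.333, so none was run.

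**Figure D3:**
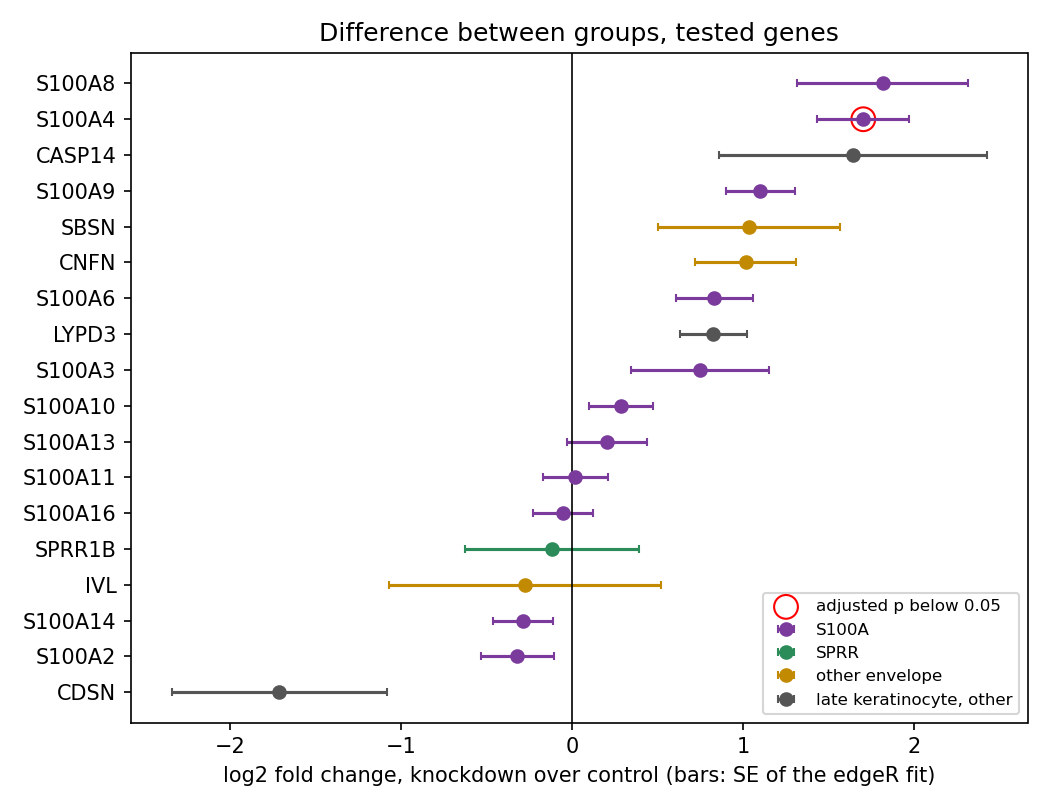
Log2 fold change of the 18 tested genes, knockdown over control, with the SE of the edgeR fit (2 libraries per group); colors mark the family and a red ring marks an adjusted p below 0.05. S100A4 carries the ring at 1.70, S100A8 lies above it at 1.82 with a wider error, and CDSN is the lowest at -1.71.

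S100A4 (ENSG00000196154, chromosome 1, 153543613 to 153550136), which encodes a calcium-binding protein tied to cell motility and also known as a fibroblast marker, had 4.11 and 4.57 CPM with scrambled shRNA against 14.5 and 13.8 CPM with CELF2 shRNA. The groups did not overlap, and the 2 libraries of each group lay close together. It rose 3.26-fold, from 4.34 ± 0.327 to 14.1 ± 0.457 CPM (mean ± SD, n = 2), a log2 fold change of 1.70 ± 0.27 (SE; edgeR, adjusted p = 0.0483). That call sits at the threshold: it was lost without control replicate 1, without knockdown replicate 2 and with limma-voom. With limma-voom its adjusted p of 0.0558 was also the smallest of any gene, so 0 of all tested genes passed there. The log2 fold change stayed between 1.52 and 1.80 in every alternative. The summed level of the fibroblast markers, mostly COL1A1, was 13.3 and 16.3 CPM in the controls and 38.0 and 21.1 CPM in the knockdown. COL1A2, COL3A1, DCN and LUM had 0 counts in all libraries, and PDGFRB had at most 0.543 CPM. The part of this sum in the S100A4 result was not tested. With bulk RNA, a larger share of cells that express a gene and more RNA of it per cell cannot be told apart.

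The neighbors of S100A4 did not all share its difference. S100A6 (ENSG00000197956, chromosome 1, 153534599 to 153536244), which encodes calcyclin, a protein of proliferating and migrating cells, had 1176 and 1630.2 CPM with scrambled shRNA against 2637 and 2359.6 CPM with CELF2 shRNA. Its groups were separate but the difference, 0.83 ± 0.22 on the log2 scale, did not pass (adjusted p = 0.0945). S100A5, between them on the chromosome, was near the floor with 8 and 1 counts with scrambled shRNA against 7 and 3 with CELF2 shRNA. S100A3, which lies within the span of S100A4 on the same strand without shared exons and encodes a protein of the hair cuticle, had 1.79 and 1.43 CPM with scrambled shRNA against 2.66 and 2.78 CPM with CELF2 shRNA (log2 fold change 0.75 ± 0.40). S100A2, the next gene, encodes a nuclear S100 protein of basal keratinocytes regulated by p53 family factors. It had 1380.4 and 1426 CPM with scrambled shRNA against 1308 and 943 CPM with CELF2 shRNA, and its knockdown libraries both lay below the controls (log2 fold change -0.32 ± 0.21, adjusted p = 0.426). That value was -0.11 when knockdown replicate 2 was left out and -0.56 when knockdown replicate 1 was. Within this run of genes the fitted differences went from 1.70 to -0.32, and S100A4 alone passed.

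S100A9 and S100A8 encode the subunits of calprotectin, an antimicrobial and inflammatory protein of stressed epidermis and of neutrophils. S100A9 (ENSG00000163220, chromosome 1, 153357854 to 153361027) had 58.0 and 50.4 CPM with scrambled shRNA against 99.1 and 134 CPM with CELF2 shRNA, a log2 fold change of 1.10 ± 0.20 (adjusted p = 0.0534). Its partner S100A8 (ENSG00000143546, chromosome 1, 153390032 to 153391188) was far less counted, with 1.61 and 0.654 CPM with scrambled shRNA against 4.59 and 3.66 CPM with CELF2 shRNA and a log2 fold change of 1.82 ± 0.50 (adjusted p = 0.0978). For both subunits the groups were separate and neither passed over all genes (edgeR quasi-likelihood test). S100A9 exceeded S100A8 in every library, also per length: 94.0 against 1.12 RPKM in the control means and 202 against 4.10 RPKM in the knockdown means. S100A12, the third gene of this myeloid group, had 1 and 0 counts with scrambled shRNA against 1 and 0 with CELF2 shRNA. The summed level of the 10 immune and myeloid markers was 4.33 and 4.46 CPM in the controls and 12.1 and 6.11 CPM in the knockdown, mostly CD14 and MPO, while PTPRC, CD3E and CSF3R were at 0; their part in the S100A8 and S100A9 values was not tested. CD14 had 1.22 and 0.356 CPM with scrambled shRNA against 10.7 and 2.02 CPM with CELF2 shRNA (log2 fold change 2.92 ± 0.85, adjusted p = 0.107), with separate groups, and MPO had a log2 fold change of -0.43 ± 0.54 with overlapping groups; neither passed. S100A7 (psoriasin, an antimicrobial protein of psoriatic skin) had 2 and 6 counts with scrambled shRNA against 5 and 10 with CELF2 shRNA, and its copies S100A7A, S100A7L2 and S100A7P1 had 0 throughout.

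The other tested S100A genes had fitted differences between -0.29 and 0.29 on the log2 scale, and 0 of these 5 passed. S100A11, which encodes a protein that is a transglutaminase substrate and takes part in keratinocyte growth control, had 806 and 975 CPM with scrambled shRNA against 857 and 950.0 CPM with CELF2 shRNA. S100A10, whose product binds annexin A2 at the membrane, had 333 and 416 CPM with scrambled shRNA against 432 and 482 CPM with CELF2 shRNA, separate groups at a log2 fold change of 0.29 ± 0.18 (adjusted p = 0.404). ANXA2 itself had 1429 and 2181 CPM with scrambled shRNA against 1789 and 2011 CPM with CELF2 shRNA, and its groups overlapped. S100A14, an S100 protein of epithelia and their tumors, had 760.2 and 847 CPM with scrambled shRNA against 685 and 632 CPM with CELF2 shRNA, with both knockdown libraries below the controls (log2 fold change -0.29 ± 0.18). S100A16 had 604 and 699 CPM with scrambled shRNA against 608 and 651 CPM with CELF2 shRNA, and S100A13, whose product takes part in the release of growth factors and cytokines without a signal peptide and whose exons overlap those of S100A1 on the opposite strand and of AL162258.1 on its own, had 13.3 and 16.1 CPM with scrambled shRNA against 15.8 and 18.1 CPM with CELF2 shRNA; in both the groups overlapped. Over the 11 tested S100A genes the median log2 fold change was 0.29, and 0.093 with the correction for GC content. Of these genes 6 were separated upward, 2 downward and 3 overlapped. Over all tested genes 27.1% were separated upward and 27.8% downward. S100A1 had 1 count in all, and the pseudogenes S100A11P1, S100A11P2 and S100A15A had 0.

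Among the small proline-rich proteins, which act as crossbridges in the envelope, SPRR1B was the one gene with a level. SPRR1B (ENSG00000169469, chromosome 1, 153031202 to 153032900) had 4.65 and 1.78 CPM with scrambled shRNA against 2.47 and 3.54 CPM with CELF2 shRNA, so the control libraries spanned both knockdown libraries (log2 fold change -0.12 ± 0.51, adjusted p = 0.918). Its value was 0.75 when control replicate 1 was left out, 0.13 without knockdown replicate 1 and -0.61 without control replicate 2. SPRR2D had 0 and 4 counts with scrambled shRNA against 3 and 16 with CELF2 shRNA, and the other 10 SPRR genes had at most 9 counts in all, 6 of them 0. SPRR2 genes are close copies of each other, as are SPRR1A and SPRR1B, and the sources used here do not say how shared reads were counted.

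The late cornified envelope genes, which are expressed in the uppermost living layers, were at the floor. Of 18 LCE genes 13 had 0 counts in all libraries and 0 passed the filter. LCE1C was the highest with 3 and 0 counts with scrambled shRNA against 9 and 1 with CELF2 shRNA. Of the fused S100-type genes, FLG (filaggrin, which aggregates keratins and yields the moisturizing factors of the skin) had 0 and 0 counts with scrambled shRNA against 0 and 2 with CELF2 shRNA, and FLG2, HRNR and RPTN had 0 throughout. LOR, the main envelope protein of normal epidermis, had 0 counts in each library, as did KPRP. CRCT1 had 2 and 1 counts with scrambled shRNA against 2 and 6 with CELF2 shRNA and CALML5, a calmodulin-like protein of differentiating keratinocytes, 2 and 1 counts with scrambled shRNA against 2 and 0 with CELF2 shRNA. For a gene at 0, the floor of 3 counts allows levels up to 0.107 to 0.178 CPM in a library, by counting error only.

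IVL encodes involucrin, the scaffold on which the envelope is laid down. IVL (ENSG00000163207, chromosome 1, 152908545 to 152911886) had 23 and 9 counts with scrambled shRNA against 3 and 23 with CELF2 shRNA. The count lies near the floor in knockdown replicate 1. The levels were 0.822 and 0.535 CPM with scrambled shRNA against 0.148 and 0.969 CPM with CELF2 shRNA. The knockdown libraries thus lay on either side of both controls and the groups overlapped (log2 fold change -0.27 ± 0.79). Its value was 0.50 when knockdown replicate 1 was left out and -2.18 when knockdown replicate 2 was. CNFN and SBSN lay higher in the knockdown without passing. CNFN (ENSG00000105427, chromosome 19, 42387019 to 42390287), which encodes cornifelin, an envelope component, had 4.79 and 4.93 CPM with scrambled shRNA against 11.1 and 8.59 CPM with CELF2 shRNA, a log2 fold change of 1.02 ± 0.30 (adjusted p = 0.106). SBSN, suprabasin of the suprabasal layers, had 0.751 and 0.475 CPM with scrambled shRNA against 1.58 and 1.01 CPM with CELF2 shRNA (log2 fold change 1.04 ± 0.53, adjusted p = 0.299), from at most 32 counts in a library. Both genes had separate groups.

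Of the late keratinocyte genes outside chromosome 1, LYPD3 had control libraries that lay close together. Its knockdown replicate 1 was 1.33 times its knockdown replicate 2. LYPD3 (ENSG00000124466, chromosome 19, 43460787 to 43465660), which encodes the surface protein C4.4A of suprabasal keratinocytes and carcinomas, had 45.9 and 43.5 CPM with scrambled shRNA against 90.7 and 68.1 CPM with CELF2 shRNA. The groups were separate, with a log2 fold change of 0.83 ± 0.20 (adjusted p = 0.0751). CASP14, the protease that processes filaggrin in cornifying cells, varied several-fold between the replicates of each group. CASP14 (ENSG00000105141, chromosome 19, 15049384 to 15058293) had 55.1 and 13.1 CPM with scrambled shRNA against 177 and 37.9 CPM with CELF2 shRNA. Replicate 1 was 4.19 times replicate 2 in the controls and 4.66 times in the knockdown, and the groups overlapped. The ratio of knockdown to control was 3.21 between the libraries numbered 1 and 2.89 between those numbered 2, and 13.5 and 0.689 between libraries of unlike number. The log2 fold change of 1.64 ± 0.78 (adjusted p = 0.268) was 0.16 without knockdown replicate 1 and 3.02 without control replicate 1. CDSN (ENSG00000204539, chromosome 6, 31115090 to 31120446), corneodesmosin, went the other way, with 4.50 and 1.66 CPM with scrambled shRNA against 1.33 and 0.590 CPM with CELF2 shRNA (log2 fold change -1.71 ± 0.63, adjusted p = 0.172). Its groups were separate, but without control replicate 1 the value was -0.81, and its exons overlap those of PSORS1C1 on the opposite strand over most of their length, so its counts are uncertain.

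**Figure D4:**
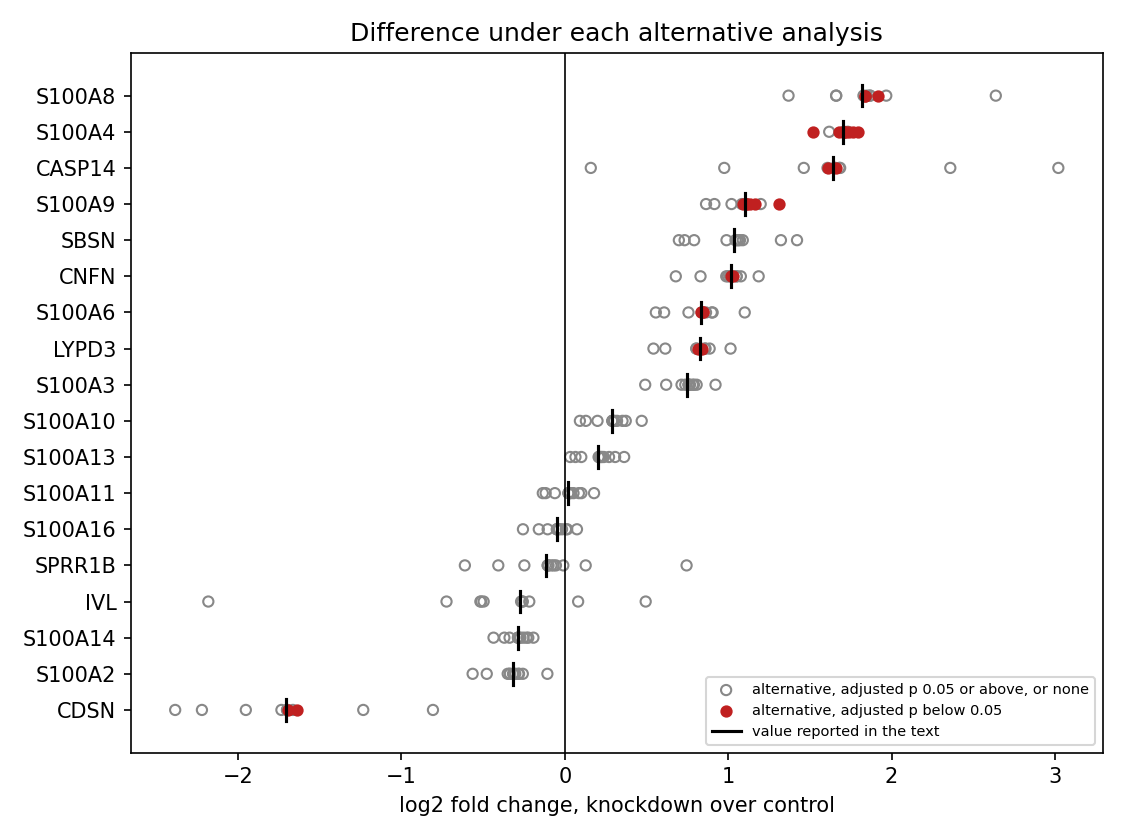
Log2 fold change (knockdown over control) of the 18 tested genes under each alternative analysis, as circles (filled red where the adjusted p was below 0.05), with the value reported in the text as a black bar. S100A4 stays between 1.52 and 1.80, whereas CASP14 spreads from 0.16 to 3.02 and SPRR1B and IVL lie on both sides of 0.

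The plot of the alternatives shows how far each of these differences moved with the scaling, filter, tool or libraries used. S100A3, S100A4, S100A6, S100A8, S100A9, S100A10, S100A13, CNFN, SBSN, CASP14 and LYPD3 stayed above 0, and S100A2, S100A14 and CDSN below 0, in each alternative that gave a value. With all 4 libraries kept, S100A4 passed in every alternative but limma-voom, which called 0 genes. S100A9 passed with library totals only (2.74% of all tested genes called) and a minimum count of 50 (1.49%). It also passed with DESeq2 (5.22%), no filter (8.25%) and the replicate block (10.4%). S100A6, S100A8 and LYPD3 passed only in these last 3 settings. CNFN passed only with DESeq2 and no filter, and CASP14 and CDSN only with no filter and the replicate block. All alternatives reuse the same 4 libraries, so these passes are not independent.

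The 9 lists of other genes, chosen with earlier results of these data known, covered cornification, the neighbors of the family on chromosome 1, and other S100 genes with their receptors and partners. They held 85 tested genes, of which 3 rose and 0 fell (3.53%, against 0.877% of all tested genes). Because earlier results were known when the lists were made, these 2 shares cannot be compared, and no excess is read from them. TGM2, a transglutaminase, had 12.4 and 16.1 CPM with scrambled shRNA against 56.9 and 56.2 CPM with CELF2 shRNA, a log2 fold change of 1.99 ± 0.21 (adjusted p = 0.0483). PPL, periplakin, on which the envelope is anchored to keratins, had 14.2 and 21.7 CPM with scrambled shRNA against 79.9 and 82.6 CPM with CELF2 shRNA, a log2 fold change of 2.18 ± 0.24 (adjusted p = 0.0483). NIPAL4, a membrane protein needed for the lipid barrier, had 10.2 and 9.45 CPM with scrambled shRNA against 33.4 and 25.6 CPM with CELF2 shRNA, a log2 fold change of 1.58 ± 0.23 (adjusted p = 0.0483). As with S100A4, these 3 genes no longer passed when control replicate 1 or knockdown replicate 2 was left out. They also did not pass with limma-voom, which called 0 of all tested genes (smallest adjusted p 0.0558). TGM1, the transglutaminase that crosslinks the envelope in suprabasal cells, had 1.68 and 2.02 CPM with scrambled shRNA against 1.78 and 4.93 CPM with CELF2 shRNA and did not pass; TGM5 was near the floor at 4 and 1 counts with scrambled shRNA against 15 and 10 with CELF2 shRNA.

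By list, 1 of 2 tested crosslinking enzymes rose (median log2 fold change 1.43), as did 1 of 11 plakins and junction proteins (median 0.23; DSP 0.08, JUP 0.48 and CDH1 0.43 did not pass) and 1 of 13 barrier lipid genes (median 0.17; ELOVL1 -0.02, SLC27A4 -0.31 and UGCG 0.11). Of 14 envelope proteases and inhibitors 0 passed (median 0.59); KLK5 had 231 and 30.1 CPM with scrambled shRNA against 346 and 110.0 CPM with CELF2 shRNA, higher in replicate 1 of either group as CASP14 was, and CTSL and CTSD had log2 fold changes of 0.37 and 0.84. Of 9 keratins 0 passed (median 0.50; KRT5 0.42, KRT14 0.58 and KRT17 0.90), and of 20 transcription factors 0 passed (median 0.64; TP63 0.37 and JUNB 1.36). The 8 tested genes of the same chromosome 1 region outside the family had a median of -0.090 and 0 passed (ILF2 -0.54, PI4KB 0.44 and CHTOP -0.01). Of 6 S100 receptors and partners 0 passed (median 0.066; ANXA2 0.07, BSG 0.06 and ANXA1 -0.22). Of the S100-named genes outside the cluster, S100P had 0 and 8 counts with scrambled shRNA against 24 and 68 with CELF2 shRNA and did not pass, S100PBP had a log2 fold change of 0.01, and S100B had 0 counts.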

How the data were processed

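The file is a matrix of raw counts by Ensembl gene as deposited, 1 column for each library; every row names a gene and 0 columns were left unmapped. HISAT2, edgeR and GRCh38 are named in the submitters' processing notes, without versions; the counting program, annotation release, strand setting and handling of shared reads were not given in the sources used here. Groups and replicate numbers came from the sample titles. The 2 libraries of a group differed beyond sampling noise (chi-square per degree of freedom 54.3 and 48.1). Groups were compared with edgeR 4.0.16 in R 4.3.3 (quasi-likelihood test) with TMM, filterByExpr at a minimum count of 10 and Benjamini-Hochberg adjustment at 0.05; the common biological coefficient of variation was 21.6%. The SE is the log2 fold change divided by the root of F. The script was tested on simulated data. Exon lengths, positions and overlaps came from GENCODE v29, which held all 65 genes. DESeq2 1.42.0, limma-voom (limma 3.58.1), other scalings and filters, a replicate block, leaving out each library and a GC correction were the alternatives. Members and lists were chosen with earlier results of these data known. The genes named were those with a mean of at least 1 CPM, those called, those with at least 10 counts in all and, of each pathway list, the called genes and the 3 with the highest mean; 1 of these is not reported here.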

Additional observations from a re-analysis of the deposited data

How the results depend on the processing

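The number of called genes moved widely: 133 as reported, 207 with RLE size factors, 416 with library totals only, 2139 with no filter on low counts, 184 with a minimum count of 50 (1.49%), 1354 with DESeq2, 0 with limma-voom (3402 at an unadjusted p below 0.05, smallest adjusted p 0.0558) and 550 with a loess GC correction, an alternative added once the data had been seen. Higher members numbered 1 as reported, 2 with library totals or a minimum count of 50, and 7 with no filter. They numbered 6 with DESeq2 and 0 with limma-voom. With no filter 1 member was lower, and 8.25% of all 25916 genes with counts were called. The members were counted among the 18 that passed the filter, so that share and the share with DESeq2 have a wider base. The cause of these changes was not tested. For the pathway genes, where all alternatives were added after seeing the data, 5, 10, 27, 5, 16, 0 and 6 were called in place of 3 with RLE, library totals, no filter, a minimum count of 50, DESeq2, limma-voom and the GC correction. The GC correction took the share of called genes that were higher from 69.2% to 34.9%, the S100A median to 0.093 and S100A11 to -0.13; library totals took S100A16 to 0.015. Without 1 library at a time, called genes ran from 0 (edgeR without control replicate 1, 1724 at an unadjusted p below 0.05) to 616 (without control replicate 2), higher members from 0 to 2, pathway genes from 0 to 11, separated members from 10 to 14 upward and 3 to 5 downward, and the medians from 0.13 to 0.47 (S100A) and -0.61 to 0.75 (SPRR, 1 gene). With 1 library left in a group, separation is easier to reach. The counts of separated members in these fits therefore cannot be compared with the 9 upward and 3 downward over all libraries. The matching shares over all tested genes are not given here. Across the same fits S100A11 ran from -0.12 to 0.18, S100A16 from -0.16 to 0.07 (reversed at 0.075 without control replicate 2), SPRR1B from -0.61 to 0.75 and IVL from -2.18 to 0.50. The labels give both groups replicates 1 and 2 without saying what a number shares; same-numbered libraries deviated together (correlation 0.20 over tested genes and 0.41 over tested members). With a replicate block 1579 genes (10.4%), 6 higher members (S100A4, S100A6, S100A8, S100A9, LYPD3 and CASP14, the last at 1.61 with an edgeR adjusted p of 0.00038), 1 lower member (CDSN) and 22 pathway genes were called. Genes under about 10 counts are limited by depth.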
